A study of Mus musculus with 20 samples.

Results

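Collagen chain genes were taken as the rows of the gene table whose symbol is Col, a type number, the letter a and a chain number. The rule found 44 of the 22660 rows, and all 44 symbols were in the GENCODE M39 annotation of GRCm39. By the kind of assembly their protein forms, 11 were fibrillar chains, 9 were network chains, 9 were FACIT chains (fibril-associated collagens with interrupted triple helices) and 15 were other chains. RNA-seq had been run on the whole plantaris muscle of 20 old male C57BL/6J mice, labelled as 2 years of age, with 5 mice in each of 4 groups. In mechanical overload (MOV), part of the gastrocnemius and soleus was cut away on both sides, which loads the plantaris, whereas sham mice had only the skin opened. Mice received vehicle (polyethylene glycol) or the senolytic pair dasatinib (5 mg/kg) and quercetin (50 mg/kg), called D + Q, by gavage on days 7 and 10, and muscle was taken on day 14. For sham mice the design text names days 7 and 14 as gavage days, so their second dose is not certain. All 20 mice are old, and each library is 1 mouse.

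Collagens are triple helices of 3 chains that are hydroxylated and folded inside the cell, trimmed outside it and then crosslinked. Types I and III, with type V at their core, build the fibrils of muscle connective tissue and tendon, type IV builds the sheet of the basement membrane around each muscle fibre and capillary, and type VI forms beaded filaments close to that sheet. FACIT chains such as type XII and XIV sit on the surface of fibrils. In skeletal muscle most fibrillar collagen is made by fibroblasts of the connective tissue, and collagen accumulation is a known part of growth, repair and fibrosis.

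The libraries held 17887532 to 26234518 counts each. The first principal component over all genes carried 78.6% of the variance and separated all MOV mice from all sham mice. On it, vehicle MOV mouse 2 lay nearest to the sham mice, at 24.1 against 40.1 to 62.3 for the other MOV mice. Muscle fibre markers such as Acta1 and Ckm made up 133900 to 155100 CPM (counts scaled for library size and composition) in vehicle sham mice and 79370 to 109400 CPM in vehicle MOV mice, so the defining markers of the labelled tissue were present. D + Q sham mouse 2 stood high above the other mice of its group for 5 chains, and their MOV against sham estimates in D + Q mice are also given without it. In whole muscle, fewer cells of a type and less RNA per cell cannot be told apart. The comparisons share mice: each sham or MOV group enters more than one of them.

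The bases in front of the start site are shown for the chains that define the 2 directions found with MOV, 3 that rose strongly and 2 that fell in both treatments. RefSeq windows of 250 bases ending at the start, on GRCm38.p6, were matched for 35 of the 44 chains, with 38 windows in all. Windows are printed for Col1a2 (chr6:4505368-4505617, + strand), Col8a1 (chr16:57754738-57754987, - strand) and Col11a1 (chr3:114030290-114030539, + strand), which rose. For the chains that fell, they are given for both starts of Col9a1 (chr1:24177360-24177609 and chr1:24194953-24195202, + strand) and for Col11a2 (chr17:34038888-34039137, + strand). Capitals mark matches on either strand to the CCAAT box (CCAAT), the core of the TATA box (TATAAA) and the GC box (GGGCGG), so a match on the other strand shows as the reverse complement. No match overlaps one of another motif in these windows.
Col1a2: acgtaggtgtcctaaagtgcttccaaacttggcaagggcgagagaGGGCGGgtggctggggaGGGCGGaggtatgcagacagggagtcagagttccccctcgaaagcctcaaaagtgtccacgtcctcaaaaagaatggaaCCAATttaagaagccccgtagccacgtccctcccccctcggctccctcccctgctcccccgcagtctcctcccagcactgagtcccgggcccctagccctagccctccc
Col8a1: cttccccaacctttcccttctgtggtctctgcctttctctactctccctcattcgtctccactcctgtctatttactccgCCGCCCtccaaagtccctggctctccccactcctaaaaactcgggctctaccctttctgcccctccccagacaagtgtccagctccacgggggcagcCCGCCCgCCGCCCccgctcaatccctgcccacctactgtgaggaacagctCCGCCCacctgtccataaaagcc
Col11a1: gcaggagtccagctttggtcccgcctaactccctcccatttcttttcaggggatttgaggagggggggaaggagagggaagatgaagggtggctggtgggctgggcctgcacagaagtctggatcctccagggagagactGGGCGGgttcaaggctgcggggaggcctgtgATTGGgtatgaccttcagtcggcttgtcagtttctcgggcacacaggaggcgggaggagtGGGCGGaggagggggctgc
Col9a1 first start: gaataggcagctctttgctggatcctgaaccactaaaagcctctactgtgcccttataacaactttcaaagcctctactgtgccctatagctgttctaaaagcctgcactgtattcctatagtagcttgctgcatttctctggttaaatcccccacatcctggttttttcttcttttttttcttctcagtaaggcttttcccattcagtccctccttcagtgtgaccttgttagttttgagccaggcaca
Col9a1 second start: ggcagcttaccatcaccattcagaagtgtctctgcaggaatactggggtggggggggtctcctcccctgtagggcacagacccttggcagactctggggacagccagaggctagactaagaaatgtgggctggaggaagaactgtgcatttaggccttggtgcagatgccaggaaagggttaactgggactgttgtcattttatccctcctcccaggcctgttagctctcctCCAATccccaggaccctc
Col11a2: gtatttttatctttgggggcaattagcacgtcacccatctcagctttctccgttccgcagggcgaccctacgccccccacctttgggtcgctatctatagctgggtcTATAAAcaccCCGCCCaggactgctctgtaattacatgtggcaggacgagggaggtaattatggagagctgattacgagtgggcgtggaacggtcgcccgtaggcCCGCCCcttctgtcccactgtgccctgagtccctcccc
The window of Col8a1 held GGGCGG in 4 places and no CCAAT, and that of the first Col9a1 start held none of the 3 motifs. CCAAT was in 13 of the 38 collagen windows (34.2%) and in 34.4% of all 17999 windows of that length. TATAAA was in 5 (13.2%) against 8.1% of all windows, and GGGCGG in 22 (57.9%) against 49.8%. A match says only that these letters are present.

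In sham muscle, collagen chains were a small part of the library, and a far larger part after MOV. In vehicle mice they took 0.0561% to 0.0764% of counts after sham surgery and 0.821% to 1.82% after MOV. In D + Q mice the shares were 0.0754% to 0.143% and 1.49% to 2.27%. Sham and MOV mice did not overlap, and the lowest MOV value was that of vehicle MOV mouse 2. To set chains beside each other, CPM were divided by the length of the joined exons in kilobases (CPM per kb). The fibrillar chains Col1a1, Col1a2 and Col3a1 together held 24.3% to 31.1% of the per-length collagen total in vehicle sham mice and 25.1% to 45.8% in D + Q sham mice, where the highest share was that of mouse 2 and the mean was 33.3%, or 30.1% without it. Their share was 67.2% to 71.3% in vehicle MOV mice and 70.9% to 72.1% in D + Q MOV mice, so the makeup of the collagen message differed as well as its amount.

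Type IV chains, those of the basement membrane, were instead a smaller share with MOV. They held 15.9% to 21.3% of the per-length total in vehicle sham mice, 13.0% to 24.2% in D + Q sham mice, 4.07% to 6.18% in vehicle MOV mice and 3.22% to 4.71% in D + Q MOV mice. Type VI chains held 13.7% to 16.8% and 10.8% to 17.5% in the vehicle and D + Q sham mice and 7.62% to 9.21% and 7.90% to 8.51% in the MOV mice. The total they are shares of was itself 75.0 to 100.4 CPM per kb in vehicle sham mice and 861 to 1630 CPM per kb in vehicle MOV mice. By level per length, Col3a1 ranked first in each of the 4 groups. In vehicle sham mice Col3a1 (10.2 CPM per kb, SD 2.19), Col4a1 (8.43), Col7a1 (8.33), Col1a1 (7.38), Col4a2 (7.33), Col6a1 (6.67) and Col1a2 (6.03) followed each other, and each chain in this order overlapped the next over the mice. In vehicle MOV mice the order was Col3a1 (393 CPM per kb, SD 102.8), Col1a1 (350.4), Col1a2 (170.0), Col6a1 (58.2), Col5a1 (54.9) and Col5a2 (42.1). Of these, Col3a1 and Col1a1 overlapped, as did Col6a1, Col5a1 and Col5a2, whereas the ranges of Col1a1 and Col1a2, and of Col1a2 and Col6a1, did not overlap. The place of Col1a2 depended on the length used, because with the longest annotated transcript it ranked second, above Col1a1, in all 4 groups.

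**Figure D1:**
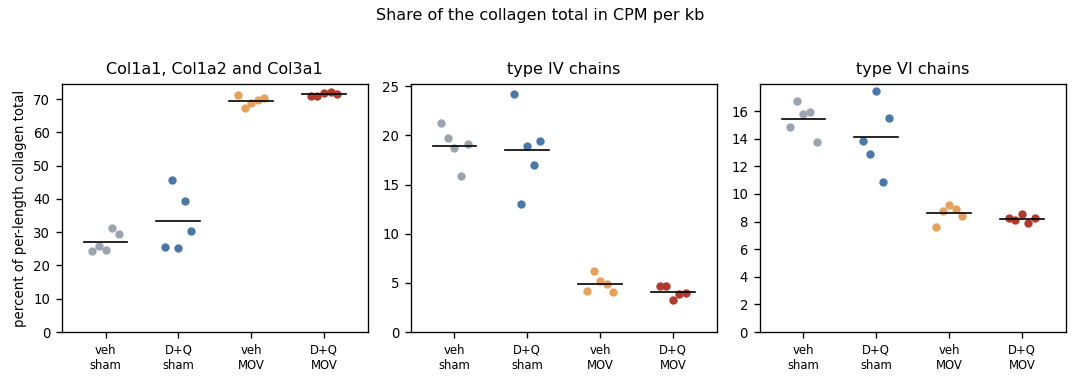
Share of the collagen message by mouse, in percent. Each point is 1 mouse, the 4 groups are set side by side, and the black line is the group mean. The MOV mice sit apart from the sham mice for all 3 shares, with Col1a1, Col1a2 and Col3a1 at 67.2% or more of the per-length total.

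MOV against sham asks how the overloaded plantaris differs from that of mice in which only the skin was opened. Load came together with the cutting of neighbouring muscles, so the 2 cannot be told apart. In vehicle mice, 28 of the 35 chains tested rose and 3 fell at an adjusted p under 0.05 (edgeR's quasi-likelihood test with Benjamini-Hochberg adjustment over all genes), where 60.5% of all 14601 genes were called, 30.7% higher and 29.8% lower. In D + Q mice, 29 of 37 rose and 3 fell, where 65.3% of 14913 genes were called, 34.4% higher and 30.9% lower. The median log2 fold change of the chains was 2.65 in vehicle mice and 2.50 in D + Q mice, against -0.02 and 0.02 for all genes. These counts and medians include Col2a1, Col26a1 and Col28a1, and Col6a5 in D + Q mice, which were under 10 counts in most sham mice. Such chains met the minimum of 10 counts in 5 mice only through the MOV mice. They could enter only if high with MOV, so their rise is no separate support. With libraries scaled by total counts only, the median of all genes moved to 0.36 and 0.39, and the higher part of all calls went from 50.8% to 84.1% in vehicle mice and from 52.6% to 83.5% in D + Q mice. The chains then numbered 29 higher and 2 lower in vehicle mice and 31 higher and 2 lower in D + Q mice. Large differences were common among them: 10 of the 35 chains had a log2 fold change above 4 in vehicle mice, against 1.06% of all genes, and the same 10 of 37 had one in D + Q mice, against 0.952%. In 25 chains every vehicle MOV mouse was above every vehicle sham mouse and in 2 every one was below (all genes: 46.5%, with 23.7% above and 22.8% below), and in D + Q mice the counts were 27 and 3 (all genes: 53.2%, with 26.2% above and 26.9% below).

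**Figure D2:**
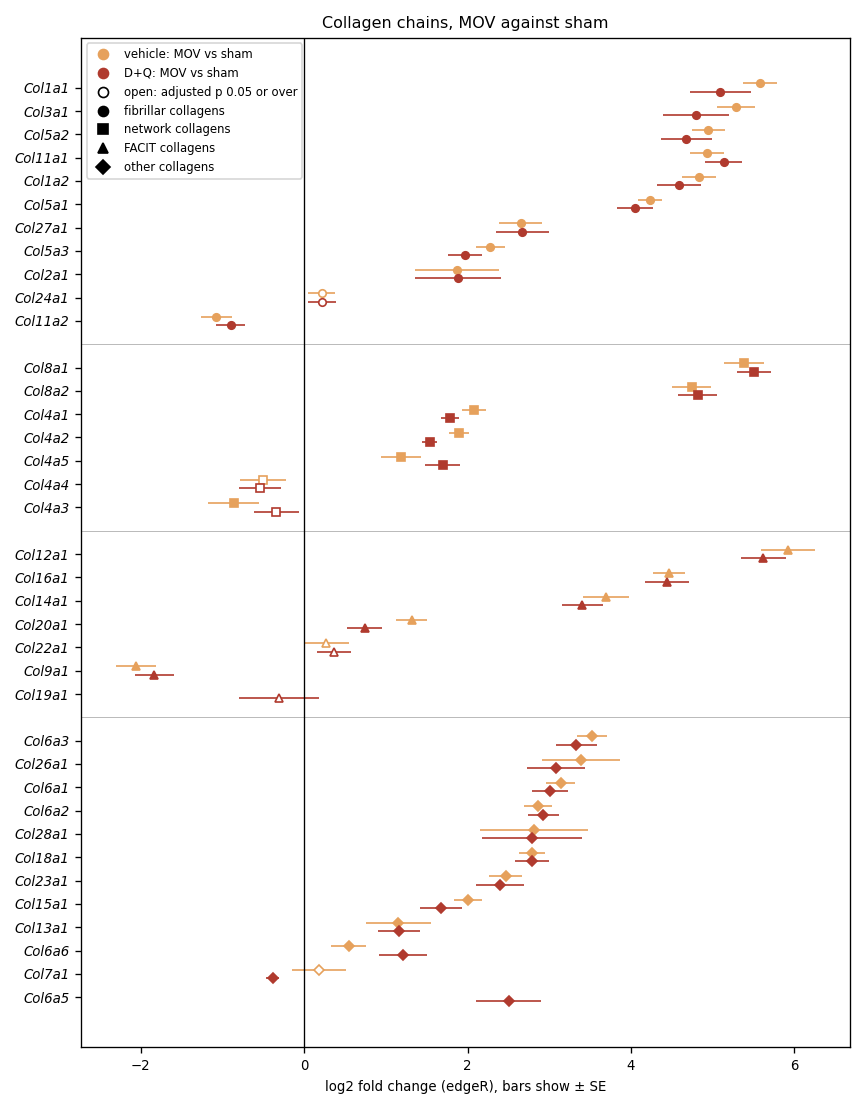
Log2 fold change, MOV against sham, of each collagen chain tested, by class, in vehicle and in D + Q mice. Points are edgeR estimates, bars are 1 standard error, and filled points passed an adjusted p under 0.05. Col12a1 is highest at 5.92 and Col9a1 lowest at -2.06 in vehicle mice.

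Of the fibrillar chains, 9 of 11 rose and 1 fell in each treatment, with median log2 fold changes of 4.23 in vehicle and 4.05 in D + Q mice. Col1a1 (chr11:94827050-94843868 on GRCm39, + strand, 51 exons) encodes the α1 chain of type I collagen, of which each type I trimer carries a pair. It was at 43.3, 39, 41.0, 63.7 and 55.4 CPM in vehicle sham mice and 2373, 1495, 2423, 2696 and 2520.0 CPM in vehicle MOV mice. D + Q mice had 57.2, 173, 56.5, 83.9 and 80.9 CPM after sham surgery and 2901, 2286, 3478, 2802 and 3404 CPM after MOV. No MOV mouse came near a sham mouse, although D + Q sham mouse 2 was well above the other sham mice and vehicle MOV mouse 2 below the other MOV mice. Col1a1 rose 47.9-fold in vehicle mice (log2 fold change 5.58, SE 0.21, adjusted p = 1.38e-09) and 34.1-fold in D + Q mice (5.09, SE 0.37, adjusted p = 2.56e-06).

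Col1a2 (chr6:4504814-4541555 on GRCm39, + strand), the α2 partner chain of type I, was at 71.6, 63.7, 61.2, 108 and 77.1 CPM in vehicle sham mice and 2131, 1397, 2321, 2590.0 and 2315 CPM in vehicle MOV mice. The D + Q groups had 91.0, 213, 97.8, 109 and 118 CPM after sham surgery and 2869, 2359, 3485, 2704 and 3173 CPM after MOV. The same 2 mice stood out as for Col1a1, and sham and MOV did not overlap (log2 fold change 4.83, SE 0.21, in vehicle and 4.58, SE 0.27, in D + Q mice). Col3a1 (chr1:45350698-45395840 on GRCm39, + strand), the single chain of type III collagen that mixes into type I fibrils, had 95.0, 85.9, 85.4, 134 and 123 CPM in vehicle sham mice and 3714, 2468, 4353, 5353 and 4288 CPM in vehicle MOV mice. Its D + Q values were 107, 414, 132, 194 and 183 CPM after sham surgery and 5478, 4920.0, 6453, 5112 and 5692 CPM after MOV. The lowest MOV mouse had 2468 CPM and the highest sham mouse 414 CPM, and the chain rose 38.9-fold in vehicle and 27.8-fold in D + Q mice (adjusted p = 9.48e-09 and 6.83e-06).

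Type V chains, which start fibrils and limit their width, rose too. Col5a1 was at 24.7, 26.5, 24.6, 29.2 and 23.7 CPM in vehicle sham mice and 496, 311, 509, 556 and 521 CPM in vehicle MOV mice. In D + Q mice it was at 30.5, 58.0, 36.4, 27.2 and 39.7 CPM after sham surgery and 597, 492, 731, 569 and 676 CPM after MOV. Sham and MOV lay far apart in both treatments, with D + Q sham mouse 2 again the highest sham mouse (log2 fold change 4.23, SE 0.15, adjusted p = 4.3e-10, in vehicle and 4.05, SE 0.22, adjusted p = 1.52e-07, in D + Q mice). Col5a2, the usual partner of Col5a1 in type V trimers and a neighbour of Col3a1, with 16713 bases between the ends of the genes, had 14.3, 12.3, 13.8, 18.7 and 17.9 CPM in vehicle sham mice and 442, 299, 509.5, 585 and 518 CPM in vehicle MOV mice. With D + Q the values were 17.4, 46.9, 18.4, 21.6 and 25.1 CPM after sham surgery and 625, 526, 803, 563 and 665 CPM after MOV. It rose by 4.95 (SE 0.20) and 4.68 (SE 0.31) on the log2 scale, with no overlap. Col5a3, the remaining type V chain, was at 30.6, 21.9, 28.0, 29.9 and 32.6 CPM in vehicle sham mice and 119, 90.2, 156, 177 and 145 CPM in vehicle MOV mice. D + Q mice had 40.5, 58.7, 42.5, 24.1 and 46.3 CPM after sham surgery and 176, 150.2, 189, 137 and 149 CPM after MOV. Its rises were smaller, 2.28 (SE 0.18) and 1.97 (SE 0.21) on the log2 scale, and again without overlap. Without D + Q sham mouse 2, the log2 fold changes in D + Q mice were 5.46 for Col1a1, 4.86 for Col1a2, 5.21 for Col3a1, 4.99 for Col5a2 and 5.72 for Col8a1.

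The type XI chains, which belong to the same fibril-core family as type V and are best known from cartilage, moved in opposite directions. Col11a1 (chr3:113824134-114014367 on GRCm39, + strand) was scarce in sham muscle, at 0.920, 0.345, 0.644, 1.40 and 0.706 CPM in vehicle sham mice and 25.4, 20.1, 26.6, 23.4 and 27.5 CPM in vehicle MOV mice. Its values with D + Q were 1.42, 1.16, 0.341, 1.17 and 1.32 CPM after sham surgery and 35.1, 27.2, 37.8, 38.3 and 44.6 CPM after MOV. All MOV mice were far above all sham mice, and Col11a1 rose by 4.93 (SE 0.21, adjusted p = 7.33e-10) in vehicle and 5.13 (SE 0.22, adjusted p = 1.43e-09) in D + Q mice on the log2 scale. Col11a2 (chr17:34258108-34285664 on GRCm39, + strand) was instead higher in sham muscle, at 23.2, 12.2, 22.2, 27.9 and 23.2 CPM in vehicle sham mice and 10.4, 7.62, 12.2, 9.75 and 11.02 CPM in vehicle MOV mice. D + Q mice showed 18.3, 24.7, 38.1, 23.7 and 26.7 CPM after sham surgery and 12.9, 12.3, 12.6, 13.5 and 17.1 CPM after MOV. The lowest vehicle sham mouse, at 12.25 CPM, was level with the highest vehicle MOV mouse, at 12.24 CPM, and the other mice of these groups lay apart. Col11a2 fell in both treatments, with log2 fold changes of -1.08, SE 0.19, adjusted p = 0.000369, in vehicle and -0.90, SE 0.17, adjusted p = 0.000708, in D + Q mice. Of the remaining fibrillar chains, Col27a1 rose (2.65 and 2.67). Col2a1, the cartilage chain, rose from a level under 1 CPM (1.87 and 1.88) with overlapping groups, and met the count minimum only through the MOV mice. The size of the Col2a1 change rested on 1 sham mouse in each treatment, being 2.82 without vehicle sham mouse 2 and 2.58 without D + Q sham mouse 2. Col24a1 was not called (0.21, adjusted p = 0.271, and 0.22, adjusted p = 0.281), except with total-count scaling (0.59 and 0.58).

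**Figure D3:**
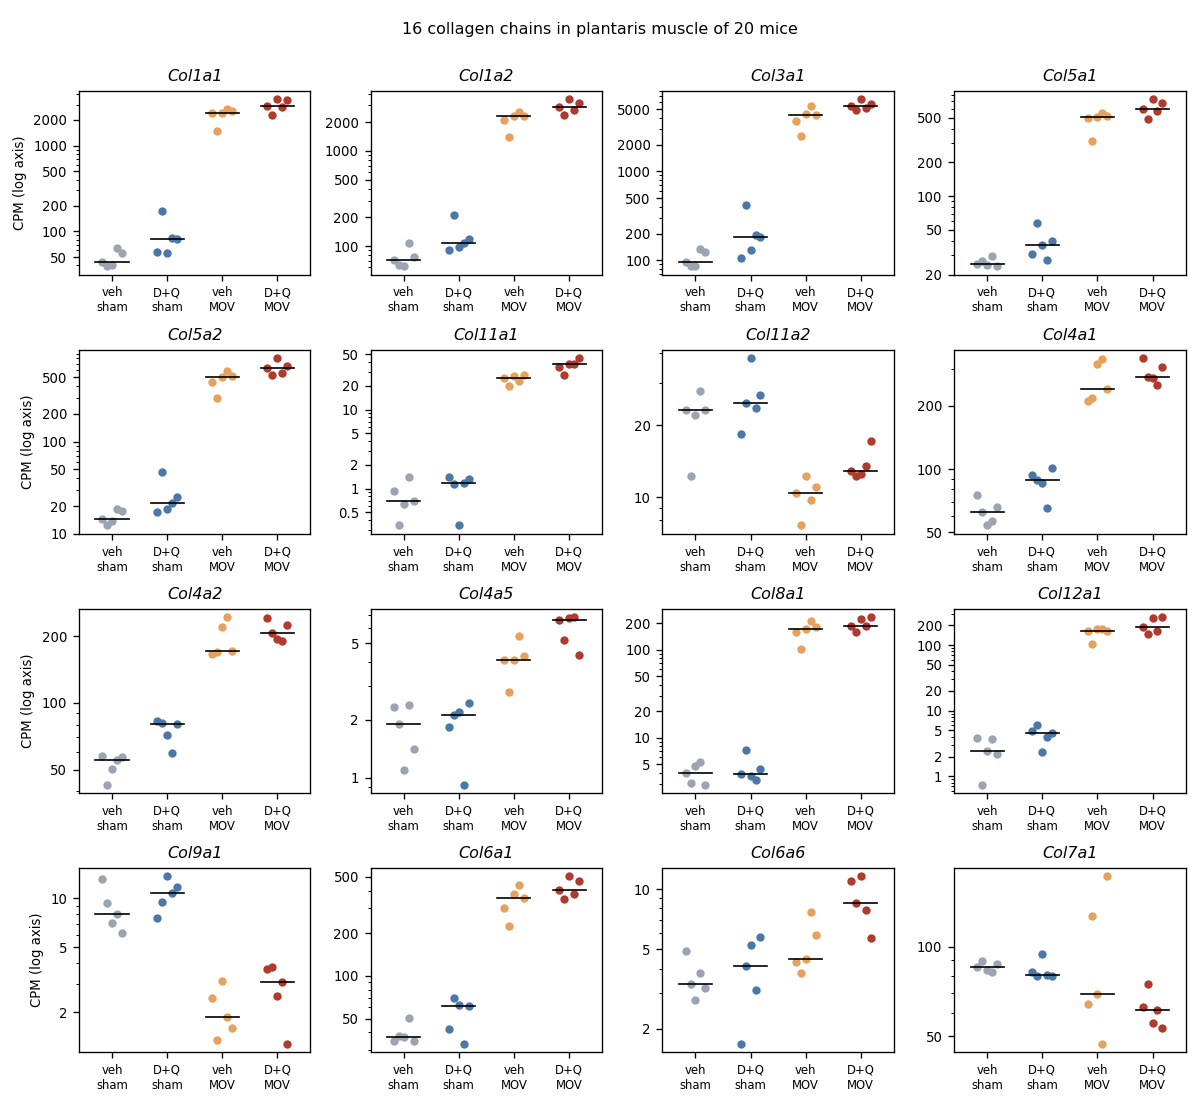
CPM of 16 collagen chains in every mouse, on a log axis. Each point is 1 mouse and the black line is the group median. Most chains step up from sham to MOV, Col11a2 and Col9a1 step down, and Col7a1 spreads widely in vehicle MOV mice.

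Among network chains, 5 of 7 tested rose in each treatment, and the basement-membrane pair Col4a1 and Col4a2 had smaller fold changes than the main fibrillar chains. These 2 genes lie head to head on chromosome 8, with starts 316 bases apart and 356 shared bases, and their chains form the common type IV trimer. Col4a1 was at 75.6, 62.4, 53.9, 56.8 and 66.1 CPM in vehicle sham mice and 212, 218, 315, 333 and 241 CPM in vehicle MOV mice. With D + Q it was at 93.5, 88.3, 85.5, 65.3 and 101 CPM after sham surgery and 337, 275, 272, 251 and 307 CPM after MOV. Sham and MOV did not overlap, and Col4a1 rose 4.23-fold and 3.44-fold (log2 fold change 2.08, SE 0.14, adjusted p = 1.31e-07, and 1.78, SE 0.11, adjusted p = 7.63e-09). Col4a2 was at 57.5, 43.0, 50.5, 55.2 and 57.1 CPM in vehicle sham mice and 166, 169, 219.7, 242 and 172 CPM in vehicle MOV mice. In the D + Q groups it was at 83.1, 81.4, 71.5, 59.7 and 80.6 CPM after sham surgery and 241, 205, 193, 190.4 and 224 CPM after MOV. It rose by 1.89 (SE 0.12) in vehicle and 1.53 (SE 0.09) in D + Q mice on the log2 scale, without overlap.

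The minor type IV chains were low and did not move together. Col4a5, on the X chromosome, had 2.35, 1.90, 1.09, 2.39 and 1.41 CPM in vehicle sham mice and 4.09, 2.80, 4.10, 5.47 and 4.31 CPM in vehicle MOV mice. D + Q values were 1.84, 2.13, 2.19, 0.922 and 2.44 CPM after sham surgery and 6.64, 5.19, 6.79, 6.83 and 4.34 CPM after MOV. Col4a5 rose in both treatments (1.19, SE 0.24, adjusted p = 0.000575, and 1.70, SE 0.22, adjusted p = 2.14e-06), with no overlap. Col4a3 had 2.16, 1.03, 0.967, 1.46 and 1.47 CPM in vehicle sham mice and 0.602, 0.985, 0.942, 0.875 and 0.507 CPM in vehicle MOV mice. Its D + Q mice had 1.52, 1.40, 1.51, 0.728 and 1.12 CPM after sham surgery and 1.21, 0.840, 0.854, 0.937 and 0.929 CPM after MOV. The groups overlapped in both treatments. Col4a3 fell in vehicle mice (-0.86, SE 0.31, adjusted p = 0.0253), a call that was lost with total-count scaling (-0.48, adjusted p = 0.193) and without vehicle sham mouse 1 (0.0903), vehicle MOV mouse 1 (0.0647) or vehicle MOV mouse 5 (0.0651). In D + Q mice it was -0.34 (adjusted p = 0.285) and 0.02 with total-count scaling. Col4a4, its head-to-head partner on chromosome 1, had 1.89, 1.496, 1.93, 2.50 and 0.883 CPM in vehicle sham mice and 1.08, 1.14, 1.18, 1.66 and 1.01 CPM in vehicle MOV mice. The D + Q groups gave 2.73, 2.62, 1.75, 1.55 and 1.78 CPM after sham surgery and 1.76, 1.57, 1.28, 1.47 and 0.796 CPM after MOV. It was not called in vehicle (-0.50, adjusted p = 0.141) or in D + Q mice (-0.54, adjusted p = 0.0748), but was called lower without vehicle sham mouse 5 (-0.67, adjusted p = 0.0403) or without D + Q sham mouse 4 (-0.63, adjusted p = 0.0486).

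Type VIII chains, short network formers known from vessel walls and the membrane under the corneal endothelium, were among the chains that rose most. Col8a1 (chr16:57444621-57575100 on GRCm39, - strand, 4 exons) was at 3.96, 3.05, 4.77, 5.30 and 2.94 CPM in vehicle sham mice and 157, 101, 173, 210.0 and 184 CPM in vehicle MOV mice. With D + Q it had 3.88, 7.37, 3.71, 3.35 and 4.48 CPM after sham surgery and 185, 159.8, 221, 187 and 233 CPM after MOV. The highest sham mouse had 7.37 CPM and the lowest MOV mouse 100.8 CPM, so that Col8a1 rose 41.6-fold in vehicle (log2 fold change 5.38, SE 0.24, adjusted p = 2.67e-08) and 45.3-fold in D + Q mice (5.50, SE 0.20, adjusted p = 3.78e-09). Col8a2, its partner chain, rose by 4.74 and 4.82 on the log2 scale from 0.524 to 2.00 CPM over all sham mice to 16.5 to 37.4 CPM over all MOV mice.

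FACIT chains held both ends of the range, with 4 higher and 1 lower of 6 tested in vehicle mice and 4 higher and 1 lower of 7 in D + Q mice. Col12a1 (chr9:79506268-79626135 on GRCm39, - strand, 66 exons), a chain of fibril surfaces in tendon and other loaded tissue, had 3.86, 0.748, 2.45, 3.67 and 2.18 CPM in vehicle sham mice and 167, 103.1, 179, 174 and 164 CPM in vehicle MOV mice. D + Q mice had 4.83, 6.15, 2.34, 3.98 and 4.53 CPM after sham surgery and 189.9, 149.7, 259, 166 and 265 CPM after MOV. It rose 60.5-fold in vehicle mice (log2 fold change 5.92, SE 0.33, adjusted p = 2.27e-07), the most of any chain, and 49.2-fold in D + Q mice (5.62, SE 0.28, adjusted p = 1.11e-07). Col9a1 (chr1:24216691-24291765 on GRCm39, + strand), a chain of type IX collagen, which decorates cartilage fibrils, had 13.2, 9.32, 7.02, 7.97 and 6.18 CPM in vehicle sham mice and 2.45, 1.35, 3.11, 1.88 and 1.60 CPM in vehicle MOV mice. Its D + Q values were 7.56, 9.56, 13.7, 10.9 and 11.8 CPM after sham surgery and 3.71, 3.82, 2.52, 3.08 and 1.28 CPM after MOV. All MOV mice were below all sham mice, and Col9a1 fell 4.16-fold in vehicle (-2.06, SE 0.25, adjusted p = 6.28e-06) and 3.56-fold in D + Q mice (-1.83, SE 0.24, adjusted p = 1.39e-05). The other type IX chains, Col9a2 and Col9a3, stayed under the count minimum in nearly all mice.

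Col14a1, another fibril-surface chain, rose by 3.69 and 3.40 on the log2 scale, and Col16a1 by 4.47 and 4.44. Col20a1, a little-studied FACIT chain, was at 1.52, 1.44, 1.87, 1.16 and 1.71 CPM in vehicle sham mice and 4.42, 3.89, 3.44, 3.37 and 3.84 CPM in vehicle MOV mice. In D + Q mice it was at 1.68, 2.19, 2.00, 1.21 and 2.65 CPM after sham surgery and 2.66, 2.98, 3.33, 2.68 and 4.07 CPM after MOV. It rose in both treatments (1.31, SE 0.19, adjusted p = 2.84e-05, and 0.74, SE 0.22, adjusted p = 0.00587), and its annotated gene overlaps another on the same strand, so some of its reads may belong there. Col22a1, which is known from the junction of muscle and tendon, was not called in vehicle (0.27, adjusted p = 0.425) or D + Q mice (0.36, adjusted p = 0.152), with 13.2 to 47.3 CPM over sham and 26.2 to 58.9 CPM over MOV mice. Col22a1 was called higher in D + Q mice with total-count scaling (0.72, adjusted p = 0.00737) and without D + Q MOV mouse 3 (0.52, adjusted p = 0.000136).

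Type VI chains Col6a1, Col6a2 and Col6a3, which form the beaded filaments around muscle fibres, all rose. Col6a1 was at 35.0, 37.5, 37.0, 50.3 and 35.0 CPM in vehicle sham mice and 299, 226, 380.4, 439 and 356 CPM in vehicle MOV mice. With D + Q it was at 42.3, 70.2, 62.3, 33.4 and 61.3 CPM after sham surgery and 405, 348, 502, 376 and 463 CPM after MOV. It rose by 3.14 (SE 0.18) and 3.01 (SE 0.22) on the log2 scale, without overlap. Col6a2, which lies 83890 bases from Col6a1 on chromosome 10, had 45.2, 42.7, 40.0, 51.9 and 41.2 CPM in vehicle sham mice and 272, 210.0, 361, 418 and 336 CPM in vehicle MOV mice. D + Q groups had 46.4, 72.5, 61.1, 34.6 and 58.3 CPM after sham surgery and 404, 339.6, 467, 364 and 434 CPM after MOV. Its log2 fold changes were 2.87 (SE 0.17) and 2.93 (SE 0.19), again without overlap. Col6a3 was at 30.1, 23.1, 25.1, 26.6 and 27.7 CPM in vehicle sham mice and 226, 209, 385, 380.2 and 309 CPM in vehicle MOV mice. Its D + Q values were 30.8, 53.8, 41.7, 23.1 and 45.0 CPM after sham surgery and 388, 297, 486, 317 and 398 CPM after MOV. The groups lay apart, and Col6a3 rose by 3.52 (SE 0.19) and 3.33 (SE 0.25).

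The chains that can take the place of Col6a3 in a type VI trimer were lower. Col6a6 was at 4.92, 3.34, 2.77, 3.78 and 3.18 CPM in vehicle sham mice and 4.33, 3.79, 4.47, 7.66 and 5.91 CPM in vehicle MOV mice. D + Q mice had 1.68, 4.14, 5.27, 3.11 and 5.75 CPM after sham surgery and 10.9, 8.52, 11.6, 7.85 and 5.71 CPM after MOV. Sham and MOV overlapped in both treatments. Col6a6 rose in D + Q mice (1.21, SE 0.29, adjusted p = 0.0035) and by a small amount in vehicle mice (0.55, SE 0.21, adjusted p = 0.0386), the latter being lost with limma-voom (adjusted p = 0.0517), with all 20 mice in one fit (0.0854), and without any 1 of vehicle sham mice 2, 3, 4 and 5 or vehicle MOV mice 4 and 5 (0.0563 to 0.109). Col6a5 was at 0.0460, 0.115, 0.0644, 0.4657 and 0.0588 CPM in vehicle sham mice and 0.522, 0.518, 1.04, 0.700 and 0.295 CPM in vehicle MOV mice. With D + Q it had 0.157, 0.365, 0.244, 0.194 and 0.0509 CPM after sham surgery and 0.977, 1.18, 1.45, 1.12 and 0.841 CPM after MOV. For MOV against sham it could be tested only in D + Q mice, where it rose (2.50, SE 0.40, adjusted p = 2.42e-05). It met the count minimum there only through the MOV mice, with 1 to 6 counts in D + Q sham and 19 to 34 in D + Q MOV mice. In vehicle mice it missed the minimum, with 7 counts in vehicle MOV mouse 5. Being tested in 1 treatment only is therefore not a difference between the treatments.

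Col7a1, the anchoring fibril chain of skin and other lining tissue, was close together in sham mice and widely spread in vehicle MOV mice. It was at 85.6, 89.3, 83.6, 82.2 and 87.6 CPM in vehicle sham mice and 64.2, 128, 69.4, 47.1 and 173 CPM in vehicle MOV mice. D + Q values were 82.5, 80.0, 94.4, 80.2 and 79.8 CPM after sham surgery and 62.7, 75.2, 55.5, 61.4 and 53.1 CPM after MOV. In vehicle MOV mice 2 and 5 it was above every sham mouse, and in the other 3 below, and the difference was not called (0.18, SE 0.33, adjusted p = 0.666). Without vehicle MOV mouse 5 its sign turned (-0.13, adjusted p = 0.683). In D + Q mice all MOV values were below all sham values and Col7a1 fell (-0.39, SE 0.08, adjusted p = 0.000672), a call lost with total-count scaling (-0.03, adjusted p = 0.769) and with all 20 mice in one fit (adjusted p = 0.147).

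The remaining other chains rose in both treatments. Col15a1 and Col18a1, the multiplexins of basement membrane zones, rose by 2.00 and 2.79 in vehicle and 1.68 and 2.79 in D + Q mice on the log2 scale. The transmembrane chains Col13a1, a component of the neuromuscular junction, and Col23a1 rose by 1.15 and 2.47 in vehicle and by 1.16 and 2.40 in D + Q mice. The call of Col13a1 in vehicle mice was lost without vehicle MOV mouse 3 (adjusted p = 0.0508) and with length and GC offsets (0.072). Col26a1 (3.39 and 3.08) and Col28a1 (2.81 and 2.79) rose from sham levels under 1 CPM, and met the count minimum only through the MOV mice. Col4a6, Col10a1, Col9a2, Col9a3, Col6a4 and Col25a1 had too few counts to be tested in any comparison, at 0 to 1.36 CPM over all 20 mice. Col17a1 and Col19a1 could be tested only in some, and neither was called.

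Genes that act on collagen were higher with MOV as well. Of all genes, 30.7% were called higher and 29.8% lower in vehicle mice, and 34.4% higher and 30.9% lower in D + Q mice. Of 19 that hydroxylate and fold procollagen, 15 rose and 1 fell in vehicle mice, with the prolyl hydroxylase P4ha3 (log2 fold change 7.80) and the lysyl hydroxylase Plod2 (4.33) at the top, and in D + Q mice 17 rose and 2 fell (P4ha3 5.75, Plod2 4.77). Mia3, which helps load procollagen into transport vesicles, fell in both (-0.66 and -0.50), as did Tmem38b in D + Q mice (-0.22), by less than the 0.39 by which total-count scaling lifts the median gene. Of 12 that cleave or crosslink procollagen, 11 rose in each treatment, led by the lysyl oxidases Lox (5.24 and 4.95) and Loxl2 (3.27 and 3.01). Of 6 that break collagen down or take it up, 5 rose in each, led by the cathepsin Ctsk (4.12 and 3.62) with Mmp14 (3.63) in vehicle and Mmp2 (3.49) in D + Q mice, and Mmp9 fell in D + Q mice (-1.71). Of 9 collagen receptors, 8 rose in vehicle and 9 in D + Q mice, led by the integrin chains Itga10 (2.82) and Itga2 (2.49) in vehicle mice and by Lair1 (3.01) and Itga2 (2.93) in D + Q mice. P4ha3, Itga2, Adamts3 and Tll1 had too few counts to be tested between the sham groups, so the size of their fold changes rests on low sham counts. They met the count minimum with the help of the MOV mice, so they could hardly have been called lower.

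Markers of other cells moved with MOV beside these chains, and their part in the results was not tested. For the counts that follow, 60.5% of all genes were called in vehicle mice and 65.3% in D + Q mice. All 5 tenocyte markers rose in both treatments, and their summed level was 49.0 to 61.7 CPM in vehicle sham and 532 to 876 CPM in vehicle MOV mice. With D + Q it was 58.2 to 67.9 and 704 to 955 CPM. Of 8 macrophage markers 7 rose in vehicle and 8 in D + Q mice, with sums of 52.7 to 134 CPM in vehicle sham and 241 to 725 CPM in vehicle MOV mice. Of 8 fibroblast markers 7 rose in each treatment, but their sums overlapped, at 665 to 987 CPM in vehicle sham and 758 to 1578 CPM in vehicle MOV mice. Gsn, the marker that was not called (-0.29, edgeR adjusted p = 0.231, in vehicle mice), was the largest part of each sum. It was at 531 to 819 CPM in vehicle sham and 403 to 790 CPM in vehicle MOV mice, so the overlap says little about the other 7. Of the cartilage and bone markers 3 could be tested in vehicle mice and rose, namely Acan, Sox9 and Dmp1. The list sums were 0.966 to 2.04 CPM in vehicle sham and 11.2 to 17.8 CPM in vehicle MOV mice. Acan, Sp7 and Matn3 were at 3 counts or fewer in every vehicle sham mouse. Acan and Dmp1 (0.059 to 0.23 CPM for Dmp1 in vehicle sham mice) met the count minimum only through the MOV mice, so they could be tested only if they rose. Of 10 endothelial markers 7 rose in vehicle mice, and of 8 muscle fibre markers 4 fell and 1 rose. Mural markers went both ways in vehicle mice, with Pdgfrb (1.40), Acta2 (1.91) and Cspg4 (1.45) higher, Abcc9 (-0.80) lower and the rest not called. Their sums overlapped, at 588 to 721 CPM in vehicle sham and 544 to 632 CPM in vehicle MOV mice. Of the Schwann markers only Pmp22 (1.16) and Sox10 (1.35) were called in vehicle mice, both higher, and the sums overlapped. Of 7 satellite cell and regenerating fibre markers 6 rose in each treatment, with sums of 43.3 to 59.2 CPM in vehicle sham and 352 to 759 CPM in vehicle MOV mice, and 51.3 to 62.4 and 307 to 582 CPM with D + Q. Of 7 endplate and denervation markers 5 rose and 1 fell in each treatment, with sums of 48.3 to 66.6 CPM in vehicle sham and 129.5 to 154 CPM in vehicle MOV mice. The sums of these 2 lists did not overlap between sham and MOV mice. Mymk, Chrng and Sox10 had too few counts to be tested between the sham groups, so they too met the count minimum with the help of the MOV mice.

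Pairs of chains were also set against each other within a mouse, where library scaling cancels. Counts were divided without a length correction, so only differences between groups are read, tested by exact permutation (two-sided) over every split of 10 mice into 5 and 5, adjusted over 20 tests. The smallest p such a split allows is 0.00794. The ratio of Col1a1 to Col1a2 was 0.640 ± 0.053 (SD, n = 5) in vehicle sham and 1.07 ± 0.030 in vehicle MOV mice, and 0.695 ± 0.098 and 1.02 ± 0.039 in the D + Q groups. No MOV mouse overlapped a sham mouse (exact permutation p = 0.00794, adjusted p = 0.0227, in each treatment), so the fold of Col1a1 was the larger. Col3a1 to Col1a1 was lower with MOV in vehicle mice, at 2.16 ± 0.062 against 1.74 ± 0.161 (exact permutation, adjusted p = 0.0227), and in D + Q mice it was 2.23 ± 0.206 against 1.88 ± 0.174 (adjusted p = 0.0595, exact permutation). That last difference passed without D + Q sham mouse 1 (exact permutation, adjusted p = 0.0353).

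Col4a1 to Col1a1, a basement-membrane chain against a fibril chain, was 1.35 ± 0.337 in vehicle sham and 0.117 ± 0.024 in vehicle MOV mice, and 1.14 ± 0.480 and 0.0988 ± 0.018 with D + Q (exact permutation, adjusted p = 0.0227 in each). Every MOV mouse was below every sham mouse. Col4a1 to Col4a2 was higher with MOV in D + Q mice, at 1.15 ± 0.071 against 1.37 ± 0.038 (exact permutation, adjusted p = 0.0227). In vehicle mice it was 1.20 ± 0.177 against 1.36 ± 0.070, with overlap (exact permutation, adjusted p = 0.195). Col6a1 to Col6a2 was higher in vehicle mice, at 0.880 ± 0.074 against 1.07 ± 0.020 (exact permutation, adjusted p = 0.0227), and was 0.983 ± 0.054 against 1.04 ± 0.030 in D + Q mice (exact permutation, adjusted p = 0.13). Whether the 2 treatments differ in these changes was not tested. None of the 10 ratio comparisons between D + Q and vehicle passed, the nearest being Col1a1 to Col1a2 in MOV mice, 1.02 against 1.07 (exact permutation p = 0.0397, adjusted p = 0.0882). Without D + Q MOV mouse 5 that one passed (exact permutation, adjusted p = 0.0227), and without D + Q sham mouse 1 Col3a1 to Col1a1 passed in sham mice (exact permutation, adjusted p = 0.0198).

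**Figure D4:**
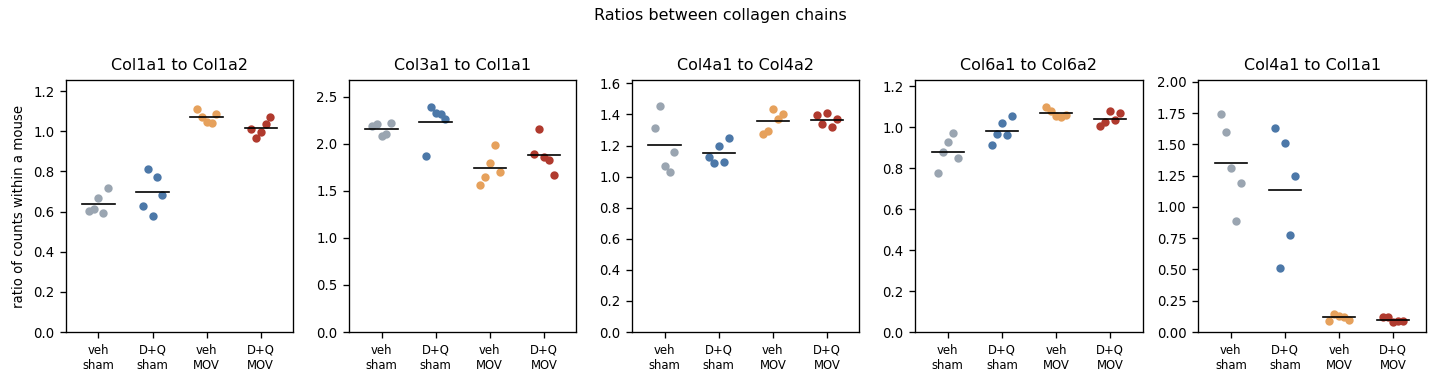
Ratio of the counts of 2 collagen chains within each mouse, on linear axes from 0. Each point is 1 mouse and the black line is the group mean. Col1a1 to Col1a2 lies at 0.578 to 0.814 in all sham mice and at 0.969 to 1.11 in all MOV mice.

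D + Q against vehicle in MOV muscle asks whether the senolytic altered the loaded muscle. No chain was called by edgeR's quasi-likelihood test, where 0% of all 15238 genes were, or by limma-voom, and DESeq2 called 1 chain, Col11a1 (log2 fold change 0.56, adjusted p = 0.0402), among 11 genes in all. The chains nonetheless leaned one way. At an unadjusted p under 0.05, 12 of 38 were higher and 0 lower, where 8.79% of all genes passed, 4.19% higher and 4.61% lower. In 33 of 38 the fold change was above 0, against 50.5% of all genes, and the median was 0.30 against 0.002 for all genes. These genes share cells and libraries, so the counts describe 10 mice and do not add up as separate evidence. The count of 12 was 7 without D + Q MOV mouse 3, and 11 without vehicle MOV mouse 2. It was joined by 1 chain lower without vehicle MOV mouse 1, vehicle MOV mouse 4 or D + Q MOV mouse 5.

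All 11 fibrillar chains had a fold change above 0, and 7 had an unadjusted p under 0.05, none of them past the adjustment. Col11a1, with the smallest p, was 20.1 to 27.5 CPM in vehicle and 27.2 to 44.6 CPM in D + Q MOV mice, so that only 1 D + Q mouse lay within the vehicle range (0.56, SE 0.12, unadjusted p = 0.000338, edgeR adjusted p = 0.523). Col11a2 was the one chain whose groups did not overlap, at 7.62 to 12.2 CPM against 12.3 to 17.1 CPM (all genes: 1.5%, with 0.748% higher), although its nearest mice, at 12.24 and 12.26 CPM, almost touched (0.41, SE 0.13, edgeR adjusted p = 0.523). For Col3a1 the difference was 0.45 (SE 0.16), for Col1a2 0.43 (SE 0.15), for Col5a2 0.43 (SE 0.16), for Col1a1 0.36 (SE 0.15) and for Col5a1 0.35 (SE 0.15) on the log2 scale. Without vehicle MOV mouse 2, the lowest for these chains, they were 0.31, 0.31, 0.30, 0.24 and 0.23. The basement-membrane chains Col4a1 (0.12, SE 0.13) and Col4a2 (0.12, SE 0.11) had smaller values.

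Outside the fibrils, the type VI chains Col6a6 (0.76, SE 0.22) and Col6a5 (0.85, SE 0.33) had the largest positive values, with edgeR adjusted p = 0.523 for both. Col14a1 (0.51), Col4a5 (0.51) and Col8a2 (0.43) were the others at an unadjusted p under 0.05. Col7a1 had the lowest value (-0.65, SE 0.34, edgeR adjusted p = 0.606), with the wide vehicle spread given above. Of the genes that act on collagen none was called, and Ctsk (0.45, unadjusted p = 0.000228) and Itga11, a collagen-binding integrin chain (0.59, unadjusted p = 0.000691), both had an edgeR adjusted p = 0.523 and are named after their values were seen. All 5 tenocyte and all 8 fibroblast markers also had a fold change above 0 with none called (all genes: 50.5% above 0). So did the macrophage markers except Cd68 (-0.35), whereas the satellite cell and regenerating fibre markers except Pax7 and Myod1 were below 0. The part of these cells in the collagen values was not tested.

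**Figure D5:**
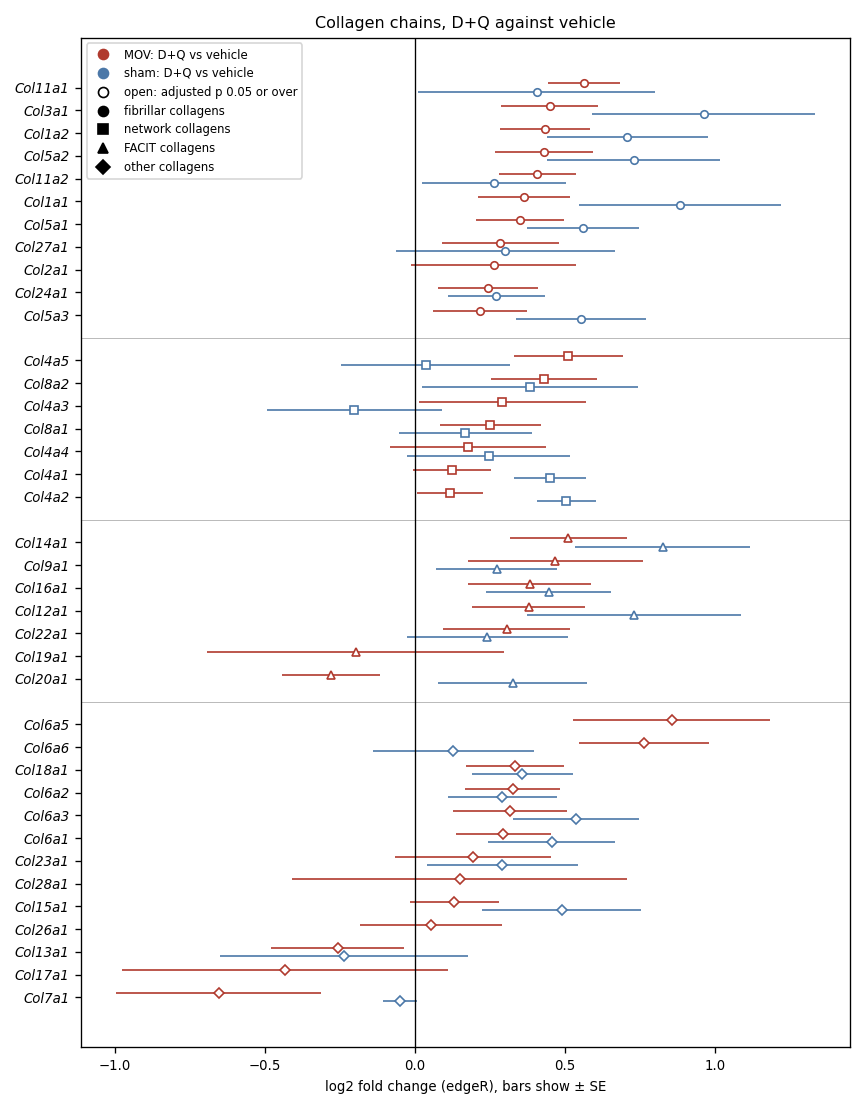
Log2 fold change, D + Q against vehicle, of each collagen chain tested, in MOV and in sham muscle. Points are edgeR estimates and bars are 1 standard error. No chain passed an adjusted p under 0.05, and most points lie above 0.

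In sham muscle, D + Q against vehicle asks what the drugs did without load. No chain was called by edgeR, where 0.215% of all 13926 genes were. DESeq2 called 3 chains, Col4a1, Col4a2 and Col5a1 (adjusted p = 0.0125, 0.000579 and 0.0397), and limma-voom called Col4a2 (adjusted p = 0.0265). At an unadjusted p under 0.05, 12 of 32 were higher and 0 lower (all genes: 10.2%, with 5.39% higher and 4.8% lower), 29 of 32 had a fold change above 0 (all genes: 48.6%), and the median was 0.37. The count of 12 was 8 without D + Q sham mouse 2, 4 without vehicle sham mouse 2 or vehicle sham mouse 3 and 7 without D + Q sham mouse 5. Without D + Q sham mouse 4, edgeR called 3 chains, among them Col4a1 (adjusted p = 0.0245) and Col4a2 (adjusted p = 0.00618).

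Col4a2 had the smallest p and the only groups that did not overlap (all genes: 2.12%, with 1.34% higher), at 43.0 to 57.5 CPM in vehicle and 59.7 to 83.1 CPM in D + Q sham mice (0.50, SE 0.10, edgeR adjusted p = 0.0644). Col4a1, its partner, was 53.9 to 75.6 and 65.3 to 100.8 CPM (0.45, SE 0.12, edgeR adjusted p = 0.22). Both hardly moved without D + Q sham mouse 2, to 0.48 for Col4a2 and 0.45 for Col4a1. Among the 12 chains, the largest values were those of Col3a1 (0.96, SE 0.37), Col1a1 (0.88, SE 0.34), Col14a1 (0.82, SE 0.29), Col5a2 (0.73, SE 0.29) and Col1a2 (0.71, SE 0.27), and these leaned on that mouse. Without it they were 0.55, 0.51, 0.63, 0.41 and 0.44. Of the genes that act on collagen, only Mmp14 was called higher (0.71, edgeR adjusted p = 0.0177). All 5 tenocyte and all 8 fibroblast markers had a fold change above 0 with none called (all genes: 48.6% above 0). So did the macrophage markers except Cd68 (-0.41) and every satellite cell and regenerating fibre marker tested. The part of these cells was not tested.

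Whether D + Q changed the response of the chains to MOV was tested by the interaction of treatment and surgery over all 20 mice. No chain was called by edgeR, where 0.0127% of all 15700 genes were, or by DESeq2 or limma-voom. At an unadjusted p under 0.05, 0 were higher and 2 lower of 38 (all genes: 5.71%, with 2.54% higher and 3.17% lower), namely Col4a2 (-0.39, SE 0.16, edgeR adjusted p = 0.809) and Col20a1 (-0.61, SE 0.28, edgeR adjusted p = 0.855). Without 1 mouse at a time the lower count was between 1 and 5, being 5 without D + Q sham mouse 4 and 1 without any of vehicle sham mice 2 and 4, D + Q sham mice 2, 3 and 5, vehicle MOV mouse 5 and D + Q MOV mice 1, 2 and 4. For the main fibrillar chains the estimates were Col1a1 -0.53 (SE 0.37), Col1a2 -0.28 (SE 0.31) and Col3a1 -0.52 (SE 0.41) on the log2 scale. Their edgeR adjusted p-values were 0.916, 0.948 and 0.931. The estimates leaned on D + Q sham mouse 2, and without it were -0.15, -0.0073 and -0.10, so a difference in response was not detected at this number of mice.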

How the data were processed

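RNA-seq of plantaris muscle from 20 mice was analysed, 5 in each of 4 groups taken from the sample labels. The authors deposited 1 gene table of estimated counts, made per the labels with STAR 2.7.8a in Partek on GRCm39. Of the values, 28.8% were not whole (tolerance 1e-09) and no gene summed to less than 10, so a filter had been applied, and values were rounded to whole numbers here. Whether counting used strand is not given in the sources used here, so genes that overlap collagen genes may share reads with them. Depth was 17887532 to 26234518 counts a library, and any count of 3 or fewer was treated as the floor, which covers counting error only.

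Tests were edgeR 4.0.16 quasi-likelihood fits (R 4.3.3, limma 3.58.1) with TMM scaling, on genes with 10 counts or more in 5 mice of the fit, fitted over all genes with Benjamini-Hochberg adjustment at 0.05. Each comparison used its own 10 mice and the interaction all 20. The SE of an edgeR estimate, printed and drawn as bars, is its absolute log2 fold change divided by the square root of the test's F statistic. Printed CPM used TMM factors over all 20 mice. Chain ratios were tested by exact permutation. Nothing in the sources pairs mice across groups, and the p-values measure the spread between these mice. No library was a duplicate of another. Per-mouse values are given for chains of types I, III, IV, V and VI that reached 1 CPM in a group, for the 3 largest rises and falls called, for chains whose D + Q and vehicle mice did not overlap and for those with an interaction at an unadjusted p under 0.05. The pathway genes named are the 2 with the largest change called. GENCODE M39 held 96.6% of the table's symbols, and 20 symbols were repeated. Alternatives were DESeq2 1.42.0, limma-voom, other scaling and count minimums, length and GC offsets, a replicate block, 1 fit over all mice and leaving out each mouse. The fits were also run on simulated data in which few genes changed, by small amounts and evenly in both directions. That setting is unlike MOV against sham, so the run does not speak to those comparisons. The members and lists were chosen with earlier results of these data known.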

Additional observations from a re-analysis of the deposited data

Results flagged for a closer look

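In 19 of 180 sets of 5 mice, 1 mouse lay far from the other 4 relative to the range of its group. Chance alone gives about 1 in 20 sets where the sets are independent and normally spread. These sets share mice and some hold values near the floor, so that rate is only a rough guide.

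D + Q sham mouse 2 was high for 5 chains. It had 173 CPM of Col1a1 (the other mice of its group 56.5 to 83.9), 213 CPM of Col1a2 (91.0 to 118), 414 CPM of Col3a1 (107 to 194), 46.9 CPM of Col5a2 (17.4 to 25.1) and 7.37 CPM of Col8a1 (3.35 to 4.48). Vehicle MOV mouse 2 was low for 3 chains and high for 1, with 1495 CPM of Col1a1 (2373 to 2696), 311 CPM of Col5a1 (496 to 556), 103.1 CPM of Col12a1 (164 to 179) and 11.4 CPM of Col24a1 (6.30 to 7.48).

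The other values were spread over mice. Vehicle sham mouse 2 had 0.748 CPM of Col2a1 (0.0644 to 0.177) and 13.2 CPM of Col22a1 (34.6 to 40.1). Vehicle sham mouse 4 had 50.3 CPM of Col6a1 (35.0 to 37.5) and 0.4657 CPM of Col6a5 (0.0460 to 0.115). D + Q sham mouse 3 had 0.341 CPM of Col11a1 (1.16 to 1.42) and 94.4 CPM of Col7a1 (79.8 to 82.5). D + Q sham mouse 1 had a ratio of Col3a1 to Col1a1 of 1.87 (2.26 to 2.39). Vehicle MOV mouse 4 had 1.66 CPM of Col4a4 (1.01 to 1.18), D + Q MOV mouse 1 had 1.21 CPM of Col4a3 (0.840 to 0.937) and D + Q MOV mouse 5 had 17.1 CPM of Col11a2 (12.3 to 13.5).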

How the results depend on the processing

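Chains called in MOV against sham kept their direction in every alternative run. Of the chains not called, Col4a3 and Col19a1 in D + Q mice turned to 0.02036 and 0.04419 with total-count scaling, and Col7a1 in vehicle mice to -0.02591 with limma-voom, -0.05776 with length and GC offsets and -0.2257 with the replicate block and offsets, and ran from -0.1259 to 0.3687 without single mice. Col4a4 was called lower in D + Q mice with length and GC offsets (adjusted p = 0.0478). Leaving out single mice gave 27 to 28 chains higher and 2 to 4 lower in vehicle mice and 28 to 29 higher and 3 to 4 lower in D + Q mice. For D + Q against vehicle in MOV mice, DESeq2 called 1 chain higher. At an unadjusted p under 0.05 the count higher was 6 with all 20 mice in one fit, 20 with a replicate block, 19 with the block and length and GC offsets, and 7 to 16 when single mice were left out. The count lower was 1 with limma-voom and with all 20 mice, and 0 to 1 without single mice. In sham mice the adjusted count was 3 with DESeq2, 1 with limma-voom, total counts, no count minimum or the block (Col4a1, adjusted p = 0.0316), and 0 to 3 without single mice. The unadjusted count higher was 4 with the block, with or without the offsets, and 4 to 16 without single mice, and 1 was lower with the offsets. For the interaction the count lower was 0 with total counts and 1 to 5 without single mice, and the count higher 0 to 1. The share of all genes at an unadjusted p under 0.05 was not taken in these settings or without single mice. Here and above, such counts therefore show only how the number of chains moved, not whether it was above that of other genes. Over all genes, the sham comparison called 30, but 133 with DESeq2, 49 with total counts, 67 with no count minimum, 19 with the block, 9 with the offsets and 3 with both, and 2 to 74 without single mice. In MOV mice the 0 genes became 2 with the block, and for the interaction the 2 genes became 1. The cause of these differences was not tested.

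No source pairs mice by replicate number. Deviations of same-numbered mice correlated from -0.25 to 0.25 over the 4 comparisons, with at most 1 of 5 pairs over 0.1 in each. These correlations cannot show whether same-numbered mice shared a batch. With the replicate block and a sign-flip test the called ratios (log2 differences 0.7479, 0.5597, -0.3167, 0.2502, 0.2842, -3.515 and -3.416) had an adjusted p = 0.139, the smallest that exact test over 5 pairs can give here. Without single mice, Col1a1 to Col1a2 in D + Q against vehicle MOV ran from -0.09426 to -0.05758, Col3a1 to Col1a1 from -0.3112 to -0.2084 in D + Q MOV against sham and from 0.01721 to 0.1049 in D + Q against vehicle sham, and Col4a1 to Col4a2 from -0.009498 to 0.03293 in D + Q against vehicle MOV and from -0.1098 to 0.01433 in sham. Single-mouse ranges that crossed 0 were, in D + Q against vehicle sham, Col4a3 (-0.3065 to 0.01023), Col4a5 (-0.09389 to 0.2161) and Col6a6 (-0.04105 to 0.3191), and in the interaction, where Col1a1 ran from -0.6653 to -0.1532, Col1a2 from -0.4367 to -0.007348 and Col3a1 from -0.6847 to -0.1028, Col5a2 (-0.4484 to 0.01415), Col4a4 (-0.2384 to 0.09183), Col6a2 (-0.1067 to 0.1496) and Col6a5 (-0.5729 to 0.7246). With the longest transcript, Col1a1, Col1a2 and Col3a1 held means of 35.38%, 75.35% and 77.12% of the per-length total in vehicle sham, vehicle MOV and D + Q MOV mice, and 33.4% to 54.9% over the D + Q sham mice. Chains under the count minimum could not be tested, and 5 mice a group limit what D + Q against vehicle can show.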
